A study of Mus musculus with 10 samples.

Results

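The 5 windows described here hold the mouse gene arrays whose products recognise antigens or the surface of other cells: the immunoglobulin heavy chain locus Igh (chromosome 12, 114.3 to 117.3 Mb), the immunoglobulin kappa light chain locus Igk (chromosome 6, 67.4 to 70.8 Mb), the T cell receptor loci Tcra/Tcrd (chromosome 14, 52.2 to 55 Mb) and Tcrb (chromosome 6, 40.8 to 41.9 Mb), and the Ly49 genes with the rest of the natural killer (NK) complex (chromosome 6, 128.5 to 131.2 Mb). All positions of these data are in the mm9 genome build. A member is any deposited topologically associating domain (TAD, a stretch of chromosome whose parts contact each other more than they contact neighbouring stretches) that overlaps a window, or any deposited significant interaction (a pair of 10 kb bins) with an end in one. This gave 757 of 58371 entries over all libraries, which were 257 of 41342 TADs and 500 of 17029 interactions. By locus, Igh held 83 TADs and 176 interactions, Igk held 51 and 52, Tcra/Tcrd held 30 and 93, Tcrb held 25 and 13, and Ly49 held 68 and 168.

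Chromosome contacts were mapped by exo-Hi-C, a form of Hi-C in which exonucleases digest linear DNA after the ligation of neighbouring fragments, in the mouse embryonic stem cell line ES-E14TG2a. The 10 libraries fell into 5 genotypes with 2 libraries each: E1-KO, E2-KO and E3-KO, each lacking 1 of 3 enhancers, E1&E3-dKO, lacking both E1 and E3, and WT. All were grown without feeder cells in medium with LIF and inhibitors of GSK3b and MEK. The labels do not say where the enhancers lie, whether a knockout line was 1 clone, which exonuclease combination (LRC or LIC) a library received, or whether replicates were separate cultures, so the p-values refer to the spread among these libraries, which may be technical.

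Antigen receptor loci consist of many V segments of shared ancestry followed by J and constant segments, with D segments between V and J at Igh, Tcrb and Tcrd, and lymphocytes cut and rejoin 1 of each kind present (V(D)J recombination) to make a receptor gene. The Ly49 family, whose genes are named Klra, encodes lectin-like receptors by which mouse NK cells read MHC class I molecules, and its neighbours Klrc (the NKG2 chains) and Klrb1 (the NKR-P1 receptors) belong to the same complex. Embryonic stem cells carry the receptor arrays unrearranged. ES-E14TG2a comes from another mouse strain than the mm9 reference, and the number of Ly49 genes is known to differ between strains.

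The RefSeq gene table of GRCm38.p6 shows how repetitive these arrays are. It lists 183 Ighv segments, of which 63 are pseudogenes, 162 Igkv segments with 60 pseudogenes, 130 Trav segments with 16, 35 Trbv segments with 13 and 16 Klra genes with 3. In the Tcra/Tcrd array the names repeat in sets, since 32 Trav names occur in a plain form, a form marked d and a form marked n. The Klra genes on the assembled chromosome stand in the order Klra17, Klra5, Klra6, Klra4, Klra11-ps, Klra8, Klra14-ps, Klra9, Klra7, Klra10, Klra13-ps, Klra3, Klra1 and Klra2. No mm9 annotation was used here, so no gene is assigned to a contact or a TAD.

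The likeness of neighbours in the NK complex can be read from the 250 bases before their start. Among 76 pairs of promoter entries from 11 Klra genes, the identity over the alignment ranged between 37.9% and 84.5% with a median of 48.0%. Pairs of a Klrc and a Klra entry reached up to 51.6%, so the median is no sign of likeness within the family. The most alike Klra pair was Klra4 and Klra8, with 212 identical positions in an alignment of 251, and the most alike Klrc pair was Klrc3 and Klrc2, with 246 of 251 (98.0%). Other promoter entries of the same genes were less alike, with 51.9% for Klra4 and Klra8 and 70.8% for Klrc3 and Klrc2. The most alike entries of both gene pairs are shown from the minus strand, 5′ to 3′. They are as RefSeq gives them for GRCm38.p6 (a build other than that of the contacts). They show how far members of such an array can be alike, and Klra11-ps stands between Klra4 and Klra8. Klra4 stands at chr6:130067272-130067521, Klra8 at chr6:130129899-130130148, Klrc3 at chr6:129643289-129643538 and Klrc2 at chr6:129660557-129660806. Capitals mark the bases that differ from the other member of the pair or have no partner in it, 38 in each Klra sequence and 4 in each Klrc sequence.
Klra4: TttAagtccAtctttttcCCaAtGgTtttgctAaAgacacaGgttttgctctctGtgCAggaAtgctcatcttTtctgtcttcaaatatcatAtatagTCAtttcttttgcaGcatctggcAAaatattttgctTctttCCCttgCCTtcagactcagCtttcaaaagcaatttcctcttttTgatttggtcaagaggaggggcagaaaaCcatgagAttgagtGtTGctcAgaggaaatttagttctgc
Klra8: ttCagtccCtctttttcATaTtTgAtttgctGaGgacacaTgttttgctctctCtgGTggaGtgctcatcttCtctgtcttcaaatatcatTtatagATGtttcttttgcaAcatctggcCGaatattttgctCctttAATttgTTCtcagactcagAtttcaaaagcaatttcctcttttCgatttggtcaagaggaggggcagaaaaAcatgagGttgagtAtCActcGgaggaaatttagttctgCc
Klrc3: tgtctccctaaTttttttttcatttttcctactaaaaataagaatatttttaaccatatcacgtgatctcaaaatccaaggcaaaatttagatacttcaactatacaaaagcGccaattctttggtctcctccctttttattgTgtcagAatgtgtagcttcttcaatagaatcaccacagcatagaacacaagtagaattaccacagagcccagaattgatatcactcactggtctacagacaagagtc
Klrc2: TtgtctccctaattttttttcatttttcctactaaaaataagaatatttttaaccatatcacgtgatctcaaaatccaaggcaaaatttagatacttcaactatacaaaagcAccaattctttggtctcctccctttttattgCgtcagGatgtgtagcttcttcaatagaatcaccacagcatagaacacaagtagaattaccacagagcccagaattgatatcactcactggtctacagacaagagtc

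The lists differed much in length. They held between 2715 TADs (E1-KO replicate 1) and 7962 (E2-KO replicate 1), and between 466 interactions (WT replicate 2) and 6014 (E1&E3-dKO replicate 2). The number of reads per library is not in the files, so depth is unknown, and counts in a window were put per 1000 entries of the same list or set against the rest of the same list. The interactions were mostly long in some libraries and mostly short in others: between 43 (WT replicate 2) and 939 (E2-KO replicate 1) spanned under 2 Mb. Titles of 4 libraries begin with w326 (E2-KO replicates 1 and 2, E3-KO replicate 2 and WT replicate 1). What that marks is not stated, and comparisons of genotypes are also given within the 2 classes of title.

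Interactions were dense at Igh, Ly49 and Tcra/Tcrd and were not at Igk and Tcrb. Igh had 11.5 ± 9.62 interaction ends per Mb, against 1.28 ± 1.32 in the rest of the genome (mean ± SD over the 10 libraries). Ly49 had 11.9 ± 6.67, against 1.28 ± 1.32 in its rest, and Tcra/Tcrd had 5.50 ± 5.75, against 1.29 ± 1.32. At these 3 loci the window exceeded the rest in 10 of 10 libraries, and an exact sign-flip permutation test over all 1024 sign patterns (two-sided) gave its smallest possible p, 0.00195, with a Benjamini-Hochberg adjusted p of 0.00651 over 10 tests. Without E2-KO replicate 1, the difference at Tcra/Tcrd was 2.75 ends per Mb in place of 4.21 over all libraries. When the genome was tiled with windows of the same length, 3 of 867 tiles had as many ends as Igh, 3 of 968 as many as Ly49 and 19 of 931 as many as Tcra/Tcrd.

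Igk had 1.53 ± 2.57 interaction ends per Mb, against 1.29 ± 1.32 in the rest, and Tcrb had 1.18 ± 2.23, against 1.29 ± 1.32 (adjusted p = 0.898 for each, exact sign-flip permutation test). All interactions of these 2 loci led out of the window. Of interactions under 2 Mb, which were set apart after seeing the data, Igk and Tcrb held none in any library, which is given as a description with no test.

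By the exact sign-flip permutation test, TADs were denser than in the rest of the genome at Igh, with 2.77 ± 0.387 TADs per Mb against 1.56 ± 0.582 (adjusted p = 0.00977, above in 9 of 10 libraries), and at Ly49, with 2.52 ± 0.694 against 1.57 ± 0.582 (adjusted p = 0.0130, above in 8 of 10). At Tcra/Tcrd they were sparser, with 1.07 ± 0.476 against 1.57 ± 0.582 (adjusted p = 0.0223, below in 7 of 10, exact permutation). This call did not hold on every setting: it was lost against the rest of chromosome 14 alone, and with only TADs scoring at least 2 the difference turned to 0.289 TADs per Mb above the rest. Tcrb had 2.27 ± 0.883 TADs per Mb against 1.57 ± 0.582 (adjusted p = 0.0130, exact permutation), but a TAD that only reaches into a short window counts here, and with TADs placed by their midpoint the difference was 0.0701 (exact permutation p = 0.781). With TADs scoring at least 2 the difference turned to -0.228. Igk, with 1.5 ± 1.10 against 1.57 ± 0.581, did not pass the exact permutation test (adjusted p = 0.898). TADs set these windows apart less than interaction ends did. Of tiles of the same length, 44 of 867 had at least as many TADs as Igh, 124 of 968 as Ly49 and 903 of 2389 as Tcrb. At most as many as Tcra/Tcrd were in 131 of 931. The tile median was 1.73 TADs per Mb for Igh and 1.74 for Ly49, above the rest. By midpoint the difference was 0.701 at Igh, in place of 1.20, and 0.953 at Ly49.

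**Figure D1:**
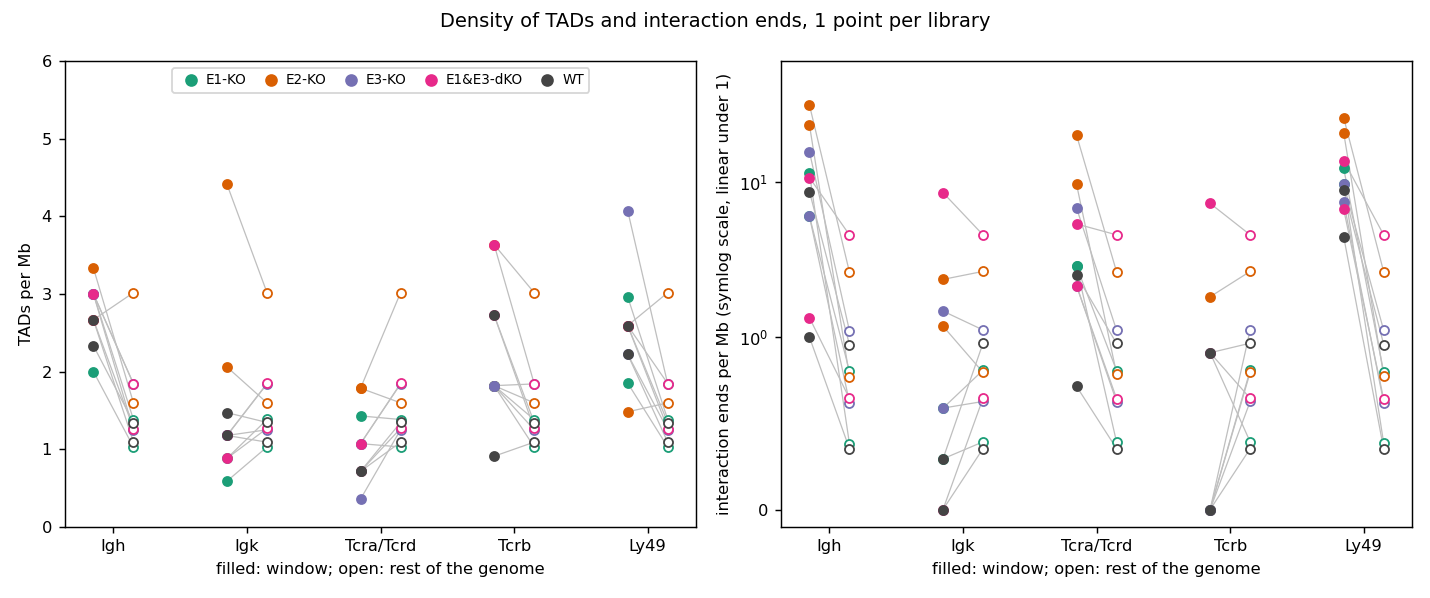
TADs per Mb (left) and interaction ends per Mb (right, linear under 1 and logarithmic above) in each window (filled) and in the rest of the genome (open), 1 point per library, coloured by genotype, with lines joining the values of a library. At Igh, Tcra/Tcrd and Ly49 the window lay above the rest in all 10 libraries for interaction ends; points of equal value lie over each other.

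The score that the authors gave each TAD, which is never under 1.5 and whose formula is not stated, also set the loci apart. In all 10 libraries the median score in the window was above the median of the library's whole list at Igh, Tcra/Tcrd and Ly49, and below it at Igk and Tcrb. Some margins were small, such as 1.687 against 1.683 at Ly49 in E3-KO replicate 2. The medians rested on 1 to 5 TADs per library at Tcra/Tcrd and 1 to 4 at Tcrb. At Igh the window medians were between 1.96 and 7.36, against list medians between 1.67 and 2.05. At Igk they were between 1.55 and 1.80. The scores of E2-KO replicate 1 were the highest at every locus, reaching 10.162 at Igh, and those of its whole list were also the highest.

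No locus showed a difference between the 8 knockout libraries and the 2 WT libraries that passed an exact permutation test over the 45 choices of 2 libraries (two-sided, smallest possible p 0.0222, adjusted over the 5 loci of a measure). A single locus could not pass after that adjustment, even at the smallest possible p. These tests therefore cannot show that knockouts and WT were alike at a locus. For TADs per 1000, Igh averaged 2.11 ± 0.538 in the knockouts and 2.38 ± 0.570 in WT, and the adjusted p was 0.889 at each of the 5 loci. For interactions per 1000, Igh averaged 15.1 ± 12.1 in the knockouts and 7.25 ± 4.19 in WT (adjusted p = 0.756), Ly49 averaged 14.3 ± 7.92 and 11.2 ± 2.44 (adjusted p = 0.756), and Tcra/Tcrd averaged 6.61 ± 4.27 and 3.72 ± 0.813 (adjusted p = 0.756, exact permutation). Within the w326 titles and within the other titles, the knockout minus WT difference in interactions per 1000 was 10.8 and 7.21 at Igh, 5.85 and 0.867 at Ly49, and 7.49 and -0.101 at Tcra/Tcrd. The Igk rate was 2.57 ± 1.46 in the knockouts, against 0.393 ± 0.555 in WT (adjusted p = 0.556, exact permutation). It was higher than both WT libraries in 7 of 8 knockout libraries. These rates rest on few calls: WT held 1 and 0 interactions at Igk, and the knockout libraries 0 to 29 with a median of 3. At Tcrb the rate was 0.626 ± 0.762, against 0.393 ± 0.555 (adjusted p = 0.756, exact permutation).

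In raw numbers, interactions with an end in a window were most frequent in the E2-KO libraries at Igh, Tcra/Tcrd and Ly49, as the plot of members by genotype shows, but the lists differ in length and the order did not hold at each locus per 1000 interactions. Igh held 47 and 35 interactions in the E2-KO libraries and between 2 and 24 in the other 6 knockout libraries, against 13 and 2 in WT. Per 1000 these were 13.4 and 33.3 in E2-KO, against 10.2 and 4.29 in WT, and E1-KO replicate 2 had 32.8. At Ly49 the E2-KO libraries held 36 and 28, against 12 and 6 in WT. Per 1000 the Ly49 values of E2-KO, 10.3 and 26.7, lay on both sides of those of WT, 9.43 and 12.9, and the mean was higher in E1-KO (20.5) than in E2-KO (18.5). Tcra/Tcrd held 32 and 16 in E2-KO, against 4 and 2 in WT, which is 9.15 and 15.2 per 1000 against 3.14 and 4.29. Both E2-KO libraries have w326 titles and E2-KO replicate 1 had the longest TAD list; their part in these numbers was not tested, and 2 libraries against 2 cannot give an exact p under 0.333.

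**Figure D2:**
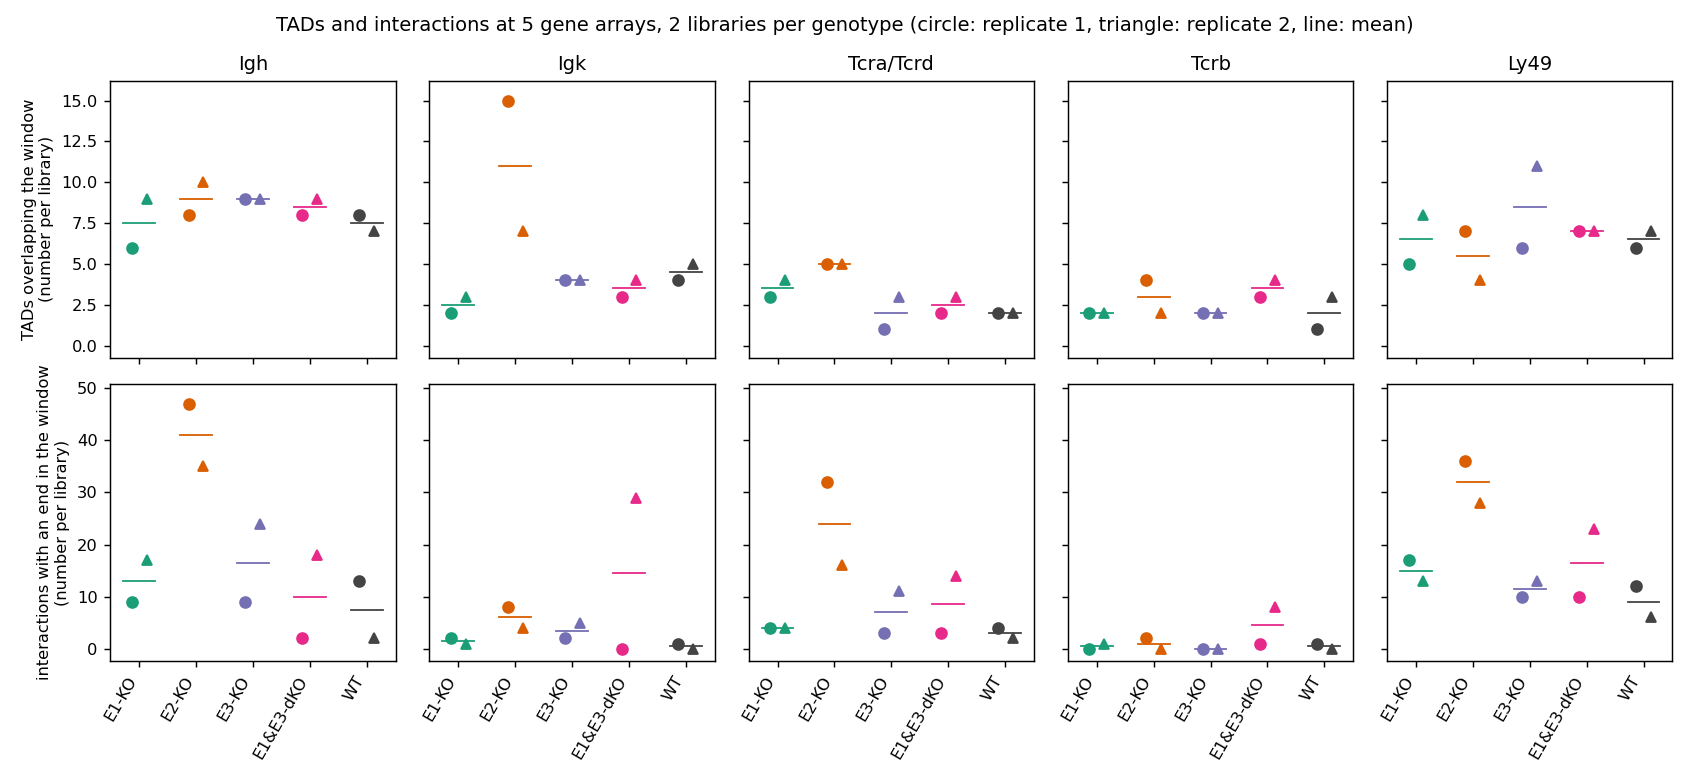
Number of TADs (top) and interactions (bottom) at each of the 5 loci per library, by genotype, with the knockouts to the left of WT; circles are replicate 1, triangles replicate 2 and lines the mean of 2 libraries. In raw numbers, not scaled for the length of the lists, the E2-KO libraries hold the most interactions at Igh (47 and 35), Tcra/Tcrd (32 and 16) and Ly49 (36 and 28), and E1&E3-dKO replicate 2 the most at Igk (29) and Tcrb (8).

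Whether libraries of a genotype resemble each other passed a test at 1 locus. For TADs per 1000 at Igk, the mean difference within a genotype was 0.159, and an exact permutation test over all 945 pairings of the libraries (one-sided, smallest possible p 0.00106) gave p = 0.00952 and an adjusted p of 0.0476. The E2-KO libraries had 1.88 and 1.66, the E3-KO libraries 1.21 and 0.823, the E1-KO libraries 0.737 and 0.822, the E1&E3-dKO libraries 0.897 and 0.821, and the WT libraries 1.39 and 1.41. Both WT values thus lay below those of E2-KO and above those of the other 6 knockout libraries. Of the 5 fits that each left out 1 genotype, the one without E1-KO gave an adjusted p of 0.143, that without E2-KO 0.357, that without E3-KO 0.143 and that without WT 0.179 by the same exact test, none of which passed, and with raw numbers the adjusted p was 0.238. At the other 4 loci, and at all 5 for interactions, the test did not pass (smallest adjusted p 0.278 and 0.429).

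Igh had more TAD boundaries in all 10 libraries than the other 4 windows, while Ly49 had more contacts in all 10 (3, against 1 at Igh). TAD boundaries near 114.45, 114.97, 115.17, 115.29 and 117.1 Mb were found in all 10 libraries, which is 5 of 26 distinct boundaries in the window, while 2.97% of boundaries over the genome were found in all 10 (shared within 25 kb). Another 4 were in 8 or 9 libraries, giving 9 of 26 in at least 8, against 8.98% over the genome. The TAD between 115.17 and 115.29 Mb was in every library, with scores of 1.998 and 3.106 in the E1-KO pair, in that of E2-KO 10.132 and 4.444, in that of E3-KO 2.192 and 3.123, in that of E1&E3-dKO 2.946 and 2.798, and in that of WT 2.507 and 2.481. The knockout scores spread on both sides of the WT scores, which lay close together.

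A large TAD at Igh reached between 116.29 and 117.09 Mb in 7 libraries, 5 knockout libraries (scores between 3.080 and 10.162) and both WT libraries (3.282 and 3.575). In the other 3 knockout libraries (E1-KO replicate 2, E2-KO replicate 2 and E1&E3-dKO replicate 2) a shorter TAD stood in its place, such as 116.37 to 116.62 Mb in E2-KO replicate 2, with a score of 4.772. Next to it, a TAD between 117.1 and 117.22 Mb was listed in 5 knockout libraries and in neither WT library, but WT replicate 1 held one with the same first boundary and an end at 117.18 Mb. Of the 10 boundaries that both WT libraries held, E1-KO lost 0, where 12.4% were lost over the genome, E2-KO lost 0 (13.6%), E3-KO lost 1 (9.44%), at 114.42 Mb, and E1&E3-dKO lost 0 (11.6%). No boundary was gained at Igh, of 7 held by both E1-KO libraries (11% gained over the genome), 10 by E2-KO (36.4%), 13 by E3-KO (14.1%) and 9 by E1&E3-dKO (18.7%).

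**Figure D3:**
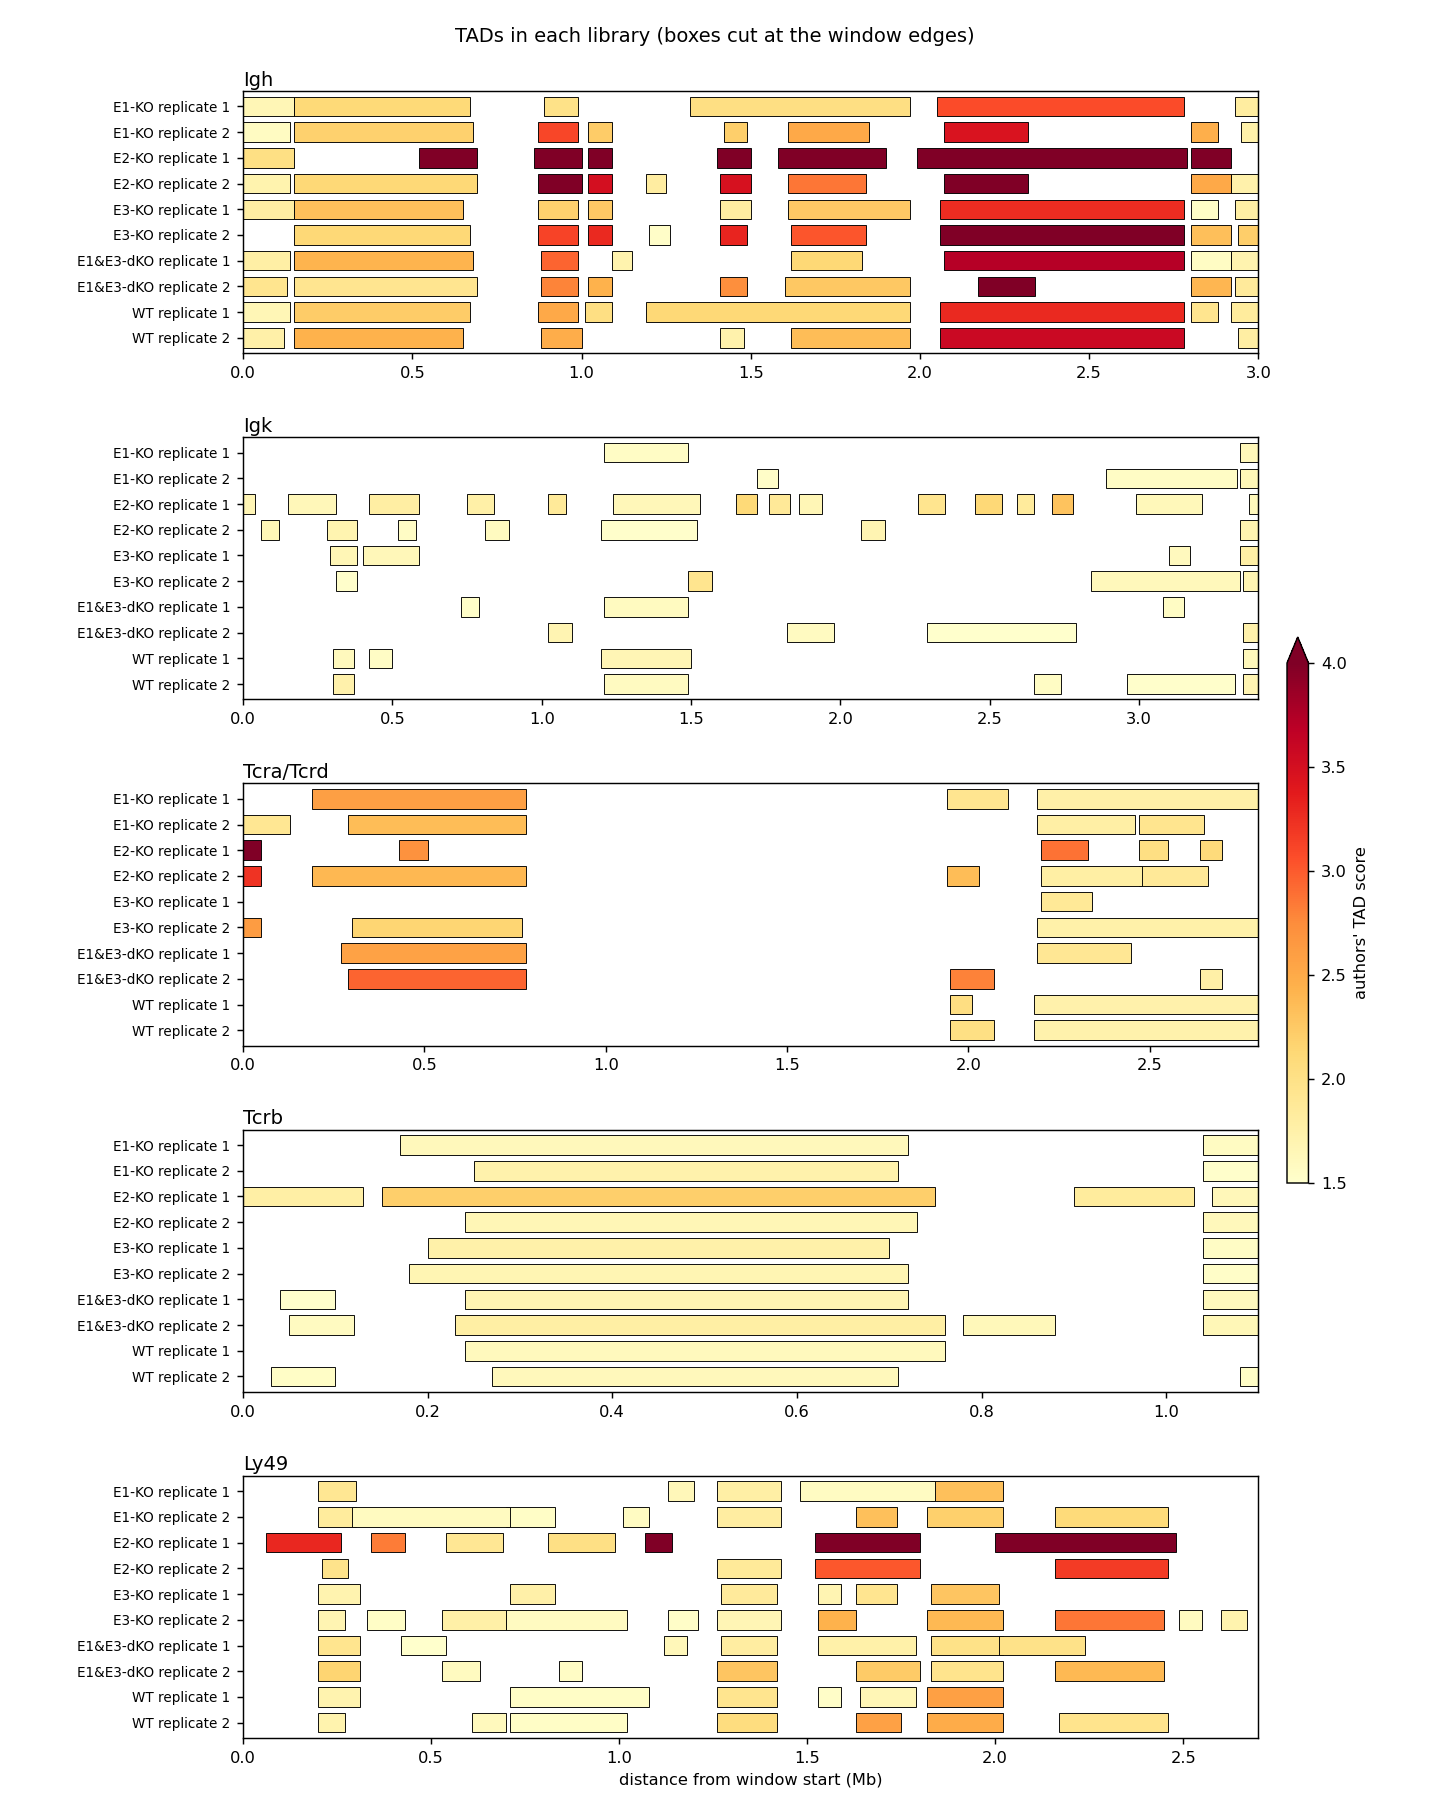
TADs in the 10 libraries at the 5 loci, by distance from the start of each window (Mb), with the knockout libraries above WT and the colour giving the authors' score. The 115.17 to 115.29 Mb TAD of Igh recurs in all rows, the middle of Tcra/Tcrd holds no TAD in any row, and the 52.47 to 52.98 Mb TAD left of it is missing from both WT rows.

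Of the 176 interactions at Igh, 170 had both ends in the window. The 176 formed 47 distinct interactions when ends within 1 bin were taken as the same. Of these, 14 (29.8%) were found in at least 5 libraries, against 1.47% of all 13963 distinct interactions. These 14 were among the 41 under 2 Mb at the locus, where the share over the genome was 6.68%. Neighbouring distinct interactions can share a call, so these counts are not of independent contacts. The contact between 116.685 and 116.985 Mb was found in all 10 libraries. It had 23 and 23 reads in the E1-KO pair, in that of E2-KO 29 and 30, in that of E3-KO 26 and 22, in that of E1&E3-dKO 11 and 18, and in that of WT 24 and 25. Read counts are not scaled for depth, and the knockout values lay on both sides of those of WT.

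The contact between 116.415 and 117.015 Mb was in all 8 knockout libraries, with 12 and 11 reads in the E1-KO pair, in that of E2-KO 20 and 22, in that of E3-KO 12 and 19, and in that of E1&E3-dKO 9 and 9, and in WT replicate 1 with 13. The contacts between 115.935 and 116.105 Mb and between 115.725 and 115.775 Mb were each in 8 libraries, missing in E1&E3-dKO replicate 1 and in WT replicate 2. These are the 2 libraries with the fewest interactions under 2 Mb. The smallest p-value in the authors' list at Igh, 6.04e-61, belonged to the 116.685 to 116.985 Mb contact in E2-KO replicate 1. E2-KO gained 7 of the 17 interactions that both its libraries held (65.2% gained over the genome), E1-KO gained 1 of 8 (23.4%), and E3-KO and E1&E3-dKO gained 0 of 7 (19.7%) and 0 of 2 (18.6%). None lost the 1 interaction at Igh that both WT libraries held, while over the genome 12% were lost by E1-KO, 8% by E2-KO, 4% by E3-KO and 13.3% by E1&E3-dKO.

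Igk, although the longest of the 5 windows, held few TADs that repeated between libraries. TADs covered between 10% and 46.8% of it in the knockout libraries, with a median of 18.7%, against 14.7% and 25% in WT. The 46.8% came from E2-KO replicate 1, which listed 15 TADs there, while no other library listed more than 7. Of 34 distinct TADs, 27 were in 1 library only, against 3 of 18 at Igh, 7 of 15 at Tcra/Tcrd, 6 of 10 at Tcrb and 16 of 30 at Ly49. E2-KO replicate 1 supplied more of the 27 than any other library. The share over the genome was not counted, so these counts only describe the 5 loci. The most frequent, between 68.6 and 68.9 Mb, was in 6 libraries: 1.554 in E1-KO replicate 1, 1.641 and 1.511 in the E2-KO pair, 1.596 in E1&E3-dKO replicate 1, and 1.668 and 1.584 in WT. All 6 scores were close to 1.5, the lowest value in the lists.

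The boundary near 70.74 Mb, close to the end of the window, was the only one of 48 at Igk in at least 8 libraries (6 knockout and both WT libraries). Over the genome 8.98% of boundaries were in at least 8. Of the 6 boundaries held by both WT libraries, E1-KO lost 3, at 67.78, 67.7 and 70.77 Mb. E1&E3-dKO lost 2 (67.78 and 67.7 Mb), E2-KO lost 1 (68.89 Mb) and E3-KO lost 1 (68.61 Mb), each against the genome-wide shares given for Igh. These scores averaged between 1.626 and 1.676 in WT. E2-KO gained 2 of the 4 boundaries that both its libraries held, at 67.99 and 67.44 Mb (36.4% gained over the genome). E1-KO gained 0 of 1 (11%) and E3-KO 0 of 3 (14.1%), and the E1&E3-dKO libraries had 0 to count. With so few boundaries these counts are a description.

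None of the 52 interactions at Igk had both ends in the window. Their partners on chromosome 6 lay between 4.66 and 80.9 Mb away, with a median of 34.96 Mb, and they rested on between 3 and 7 reads. E1&E3-dKO replicate 2, the library with the most interactions, supplied 29 of them. Of 46 distinct interactions, 43 were in 1 library, and none was in as many as 5. Over the genome 1.47% were in at least 5, so a count of 0 is near that share. Neighbouring contacts about 9.07 to 9.11 Mb long, with ends near 58.545 and 67.635 Mb, were in E2-KO replicates 1 and 2 and in E3-KO replicate 2. Both E2-KO libraries listed the pair 58.545 and 67.635 Mb with 7 reads. They listed its neighbour, 58.555 and 67.625 Mb, with 3 and 6 reads. E3-KO replicate 2 listed 58.535 and 67.645 Mb with 6 reads and 58.555 and 67.625 Mb with 5. Being within 1 bin, these calls are not independent contacts. All 3 libraries have w326 titles, and WT replicate 1, the remaining one, did not list them. The contact between 34.085 and 69.045 Mb was found with 6 reads in E1-KO replicate 1, 3 in E2-KO replicate 2 and 4 in WT replicate 1.

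At Tcra/Tcrd the TADs and the contacts occupied different parts of the window. No TAD of any library covered any of the 1.16 Mb between 52.98 and 54.14 Mb, also not in E2-KO replicate 1 with its 7962 TADs. Over the genome, 26 of 3746 stretches that lie between TADs and in no TAD of any library were as long (0.694%), with a median of 50 kb. This stretch nevertheless held both ends of 57 of the 61 interactions inside the window. The other TAD-free stretches of the 5 windows were at most 170 kb long, and none held both ends of an interaction.

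The TAD that ends where this stretch begins, between 52.47 and 52.98 Mb, was listed in 6 knockout libraries and in neither WT library. Its scores were 2.594 and 2.356 in E1-KO, 2.398 in E2-KO replicate 2, 2.149 in E3-KO replicate 2, and 2.567 and 2.955 in E1&E3-dKO. It was missing in E2-KO replicate 1 and E3-KO replicate 1 as well as in WT, so knockouts and WT overlap in its absence. By the rule that both libraries of a genotype hold a boundary and neither WT library does, the boundary at 52.98 Mb was gained in E1-KO (1 of 2 boundaries) and in E1&E3-dKO (2 of 2, with 52.49 Mb). E2-KO gained 3 of 4, at 52.25, 54.84 and 54.67 Mb, and E3-KO gained 0 of 1. With so few boundaries per genotype these counts are a description, and over the genome 11%, 18.7%, 36.4% and 14.1% were gained in E1-KO, E1&E3-dKO, E2-KO and E3-KO.

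On the other side of the stretch, the boundary near 54.39 Mb was in 9 libraries (7 knockout and both WT libraries). It was the only one of 17 at the locus in at least 8, where 8.98% of boundaries were over the genome. E3-KO lost 1 of the 2 boundaries that both WT libraries held, at 54.15 Mb (9.44% lost over the genome). E1-KO, E2-KO and E1&E3-dKO each lost 0 of these 2 (12.4%, 13.6% and 11.6% over the genome). With 2 boundaries these counts are a description. The highest score at the locus, 7.001, belonged to a TAD between 52.18 and 52.25 Mb in E2-KO replicate 1, which was also in E2-KO replicate 2 (3.221) and E3-KO replicate 2 (2.631). Those 3 libraries have w326 titles.

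The most frequent contact of Tcra/Tcrd joined 53.665 and 53.965 Mb. It had 9 and 9 reads in the E1-KO pair, in that of E2-KO 12 and 14, in that of E3-KO 12 and 9, and in that of E1&E3-dKO 16 and 13, and 10 in WT replicate 1, while WT replicate 2 did not list it. The contact between 53.355 and 54.055 Mb, 700 kb apart, was in 7 libraries: 16 and 11 reads in E1-KO, 28 and 21 in E2-KO, 5 in E3-KO replicate 2, 8 in E1&E3-dKO replicate 1 and 8 in WT replicate 1. The contact between 53.395 and 54.085 Mb was also in 7 and the one between 53.335 and 54.045 Mb in 6 knockout libraries and no WT library. Together 4 of 41 distinct interactions (9.76%) were in at least 5 libraries, against 1.47% of all distinct interactions. These 4 were among the 16 under 2 Mb at the locus, where the share over the genome was 6.68%. As at Igh, neighbours can share a call. E2-KO gained 6 of 9 interactions (65.2% over the genome), E1-KO 1 of 4 (23.4%), E3-KO 0 of 2 (19.7%) and E1&E3-dKO 0 of 1 (18.6%). Among its 32 contacts to the outside, with partners up to 70.1 Mb away, the one between 45.135 and 52.245 Mb recurred in E3-KO replicate 2 and in the E2-KO pair.

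Tcrb, the shortest window, was built around 1 TAD. It reached between about 40.97 and 41.52 Mb and was found in all 10 libraries, with scores of 1.620 and 1.734 in the E1-KO pair, in that of E2-KO 2.211 and 1.659, in that of E3-KO 1.751 and 1.684, in that of E1&E3-dKO 1.692 and 1.787, and in that of WT 1.611 and 1.618. Each knockout score was above both WT scores, in E1-KO replicate 1 (1.620) by little. No test was run on these scores, and whether scores of different libraries share a scale is not stated. Although the TAD recurred at 80% overlap, its edges varied, and no boundary of the window was in all libraries. The only one of 13 in at least 8 (8.98% of boundaries over the genome) lay outside this TAD, at 41.84 Mb.

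The boundary at 41.84 Mb was in 8 of 8 knockout libraries and in neither WT library when boundaries within 25 kb were taken as shared, and so counted as gained in each knockout genotype. By that rule E1-KO gained 1 of 2 boundaries (11% over the genome), E2-KO 1 of 1 (36.4%), E3-KO 2 of 3 (14.1%) and E1&E3-dKO 1 of 4 (18.7%). Its scores lay between 1.515 and 1.834. WT replicate 2 held a TAD between 41.88 and 41.94 Mb. With boundaries shared within 50 kb, 1 gain was left at Tcrb, in place of the 5 within 25 kb, the fifth being at 41 Mb in E3-KO. Over the genome 1.47% of distinct interactions were in at least 5 libraries. The 13 interactions of Tcrb were each in 1 library, all led out of the window and rested on 2 to 4 reads. E1&E3-dKO replicate 2 held 8 of them. That library also held the only contacts between loci, from 70.645 Mb in Igk to 41.005 Mb in Tcrb and to 129.195 Mb in the NK complex, each with 3 reads.

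At Ly49, contacts gathered in the last part of the window and TADs were spread over it. The boundary near 130.32 Mb was the only one of 34 in all 10 libraries, and 5 were in at least 8. Over the genome the shares were 2.97% and 8.98%. The TAD between 129.76 and 129.92 Mb was in 9 libraries, with scores between 1.667 and 2.290 in 7 knockout libraries, against 1.943 and 2.065 in WT. The TAD between 130.32 and 130.52 Mb was in 8, with scores between 1.950 and 2.381 in 6 knockout libraries (neither E2-KO library listed it), against 2.591 and 2.490 in WT. For this TAD both WT scores were above those of the 6 knockout libraries. The TAD between 130.66 and 130.95 Mb was in 4 knockout libraries (2.1 to 3.179) and in WT replicate 2 (1.954).

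Of the 7 boundaries at Ly49 that both WT libraries held, E2-KO lost 1, at 130.13 Mb (13.6% lost over the genome), and E1&E3-dKO lost 1, at 129.21 Mb (11.6%). E1-KO and E3-KO lost 0, where 12.4% and 9.44% were lost over the genome. E1&E3-dKO gained 1 of 8, at 129.03 Mb (18.7% gained over the genome), E1-KO gained 0 of 6 (11%), E2-KO 0 of 5 (36.4%) and E3-KO 0 of 9 (14.1%). With so few boundaries, these counts do not set the locus apart from the genome.

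Of the 168 interactions at Ly49, 154 had both ends in the window. Among 44 distinct ones, 8 (18.2%) were in at least 5 libraries, against 1.47% over the genome. These 8 were among the 30 under 2 Mb, where the share over the genome was 6.68%. As at Igh, neighbours can share a call. In all 10 were 3 contacts. The contact between 130.675 and 130.935 Mb had 35 and 27 reads in the E1-KO pair, in that of E2-KO 49 and 61, in that of E3-KO 24 and 33, in that of E1&E3-dKO 16 and 38, and in that of WT 31 and 16. Its neighbour between 130.695 and 130.945 Mb had 25 and 27 reads in the E1-KO pair, in that of E2-KO 16 and 52, in that of E3-KO 24 and 17, in that of E1&E3-dKO 12 and 33, and in that of WT 18 and 16. The contact between 130.535 and 130.745 Mb had 27 and 29 reads in the E1-KO pair, in that of E2-KO 59 and 44, in that of E3-KO 13 and 17, in that of E1&E3-dKO 19 and 23, and in that of WT 25 and 12. In each of the 3 the knockout reads overlapped those of WT. Together with the Igh contact, these were 4 of the 26 distinct interactions of the genome in all 10 libraries, and the 5 loci held 26 of the 205 in at least 5.

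The 130.535 to 130.745 Mb contact had 59 reads and a p-value of 8.55e-122 in E2-KO replicate 1, the smallest of the locus in the authors' lists. E2-KO gained 13 of the 19 interactions that both its libraries held at Ly49 (65.2% over the genome), and E1-KO gained 1 of 5 (23.4%), between 130.715 and 130.965 Mb, which borders on the contact present in every library. E3-KO gained 0 of 6 (19.7%) and E1&E3-dKO 0 of 4 (18.6%), and none of the 4 interactions held by both WT libraries was lost in any knockout, where 4% to 13.3% were lost over the genome. Counts of 0 among so few members are near what those shares give. The contact between 130.135 and 130.225 Mb was in 5 knockout libraries (10 to 22 reads) and in no WT library.

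Contacts at Igh, Tcra/Tcrd and Ly49 shared a form: they came in runs in which successive bins of one stretch met successive bins of another at nearly the same distance. A run was counted where at least 3 bin pairs had first ends within 50 kb of each other and distances within 10 kb. Of the distinct bin pairs under 2 Mb, pooled over the libraries, 43 of 65 at Igh (66.2%), 23 of 30 at Tcra/Tcrd (76.7%) and 30 of 49 at Ly49 (61.2%) lay in such runs, where 21.5% of 2368 did so over the genome. Without each library in turn, the share ranged between 65.1% and 81.0% at Igh, 70.6% and 79.3% at Tcra/Tcrd, and 55.6% and 66.7% at Ly49, against 14.4% to 24.8% over the genome. The number at Tcra/Tcrd was 12 of 17 without E2-KO replicate 1. Igk and Tcrb had no bin pair under 2 Mb. This form was noticed in the data and then counted in the same data, and has no test.

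**Figure D4:**
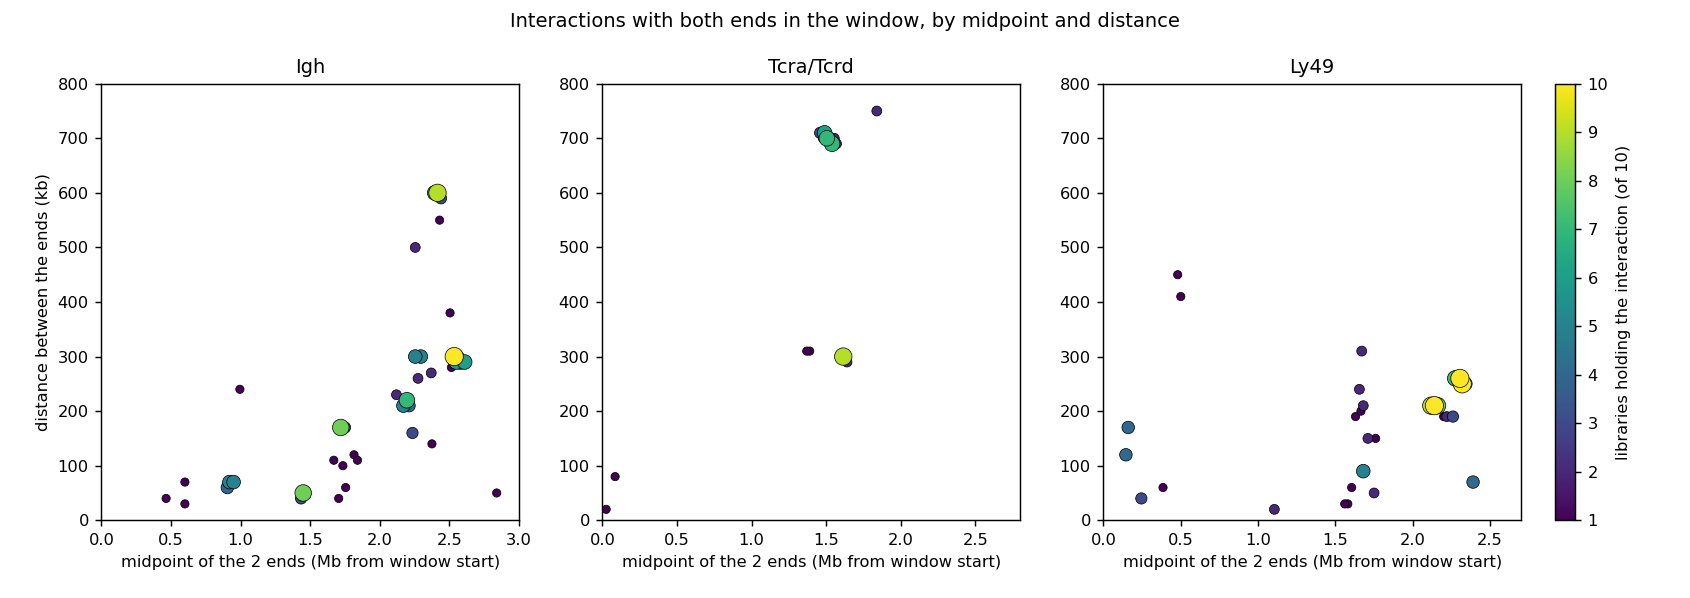
Distinct interactions with both ends in the window at Igh, Tcra/Tcrd and Ly49, by the midpoint of the 2 ends (Mb from the window start) and the distance between them (kb), with size and colour giving the number of libraries. Points gather at a few distances, such as 600 kb at Igh, 700 kb at Tcra/Tcrd and 210 and 260 kb at Ly49.

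The best covered run lay at Ly49, where bins between 130.645 and 130.715 Mb met bins between 130.895 and 130.965 Mb, 250 to 260 kb away. It comprised 11 bin pairs and 1290 reads and was found in every library: 6 and 7 interactions in the E1-KO pair, in that of E2-KO 6 and 9, in that of E3-KO 6 and 7, in that of E1&E3-dKO 5 and 6, and in that of WT 6 and 4. The numbers in the knockouts overlapped those in WT. The second run of Ly49, 200 to 210 kb between 130.515 to 130.555 and 130.715 to 130.765 Mb, had 8 bin pairs, and each library listed 2 to 6. Its second stretch begins at 130.715 Mb, where the first stretch of the other run ends.

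At Igh the largest run joined 116.675 to 116.765 Mb with 116.955 to 117.055 Mb at 280 to 300 kb. It had 11 bin pairs in all 10 libraries, with 2 and 4 interactions in the E1-KO pair, in that of E2-KO 8 and 7, in that of E3-KO 2 and 5, in that of E1&E3-dKO 1 and 3, and in that of WT 4 and 1. A stretch between 116.395 and 116.445 Mb took part in 2 runs, meeting 116.705 to 116.745 Mb at 300 to 310 kb (7 libraries) and 116.995 to 117.035 Mb at 590 to 600 kb (9 libraries). The 3 stretches of Igh were therefore spaced about 300 and 290 kb apart and met in all 3 combinations. Shorter runs of Igh had median distances of 70, 50, 170 and 210 kb.

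Tcra/Tcrd had the longest run, of 19 bin pairs, in which 53.305 to 53.435 Mb met 54.005 to 54.125 Mb at 690 to 710 kb. It had 2 and 3 interactions in the E1-KO pair, in that of E2-KO 16 and 9, in that of E3-KO 1 and 7, in that of E1&E3-dKO 2 and 0, and in that of WT 2 and 0. The second run, between 53.665 to 53.695 and 53.965 to 53.985 Mb, was in 9 libraries with 1 to 4 interactions each. All stretches of both runs lie in the 1.16 Mb without a TAD. The Trav names that repeat in sets come from the same array, but whether the stretches that met hold related segments was not tested, because neither mm9 sequence nor mm9 annotation was used here.

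**Figure D5:**
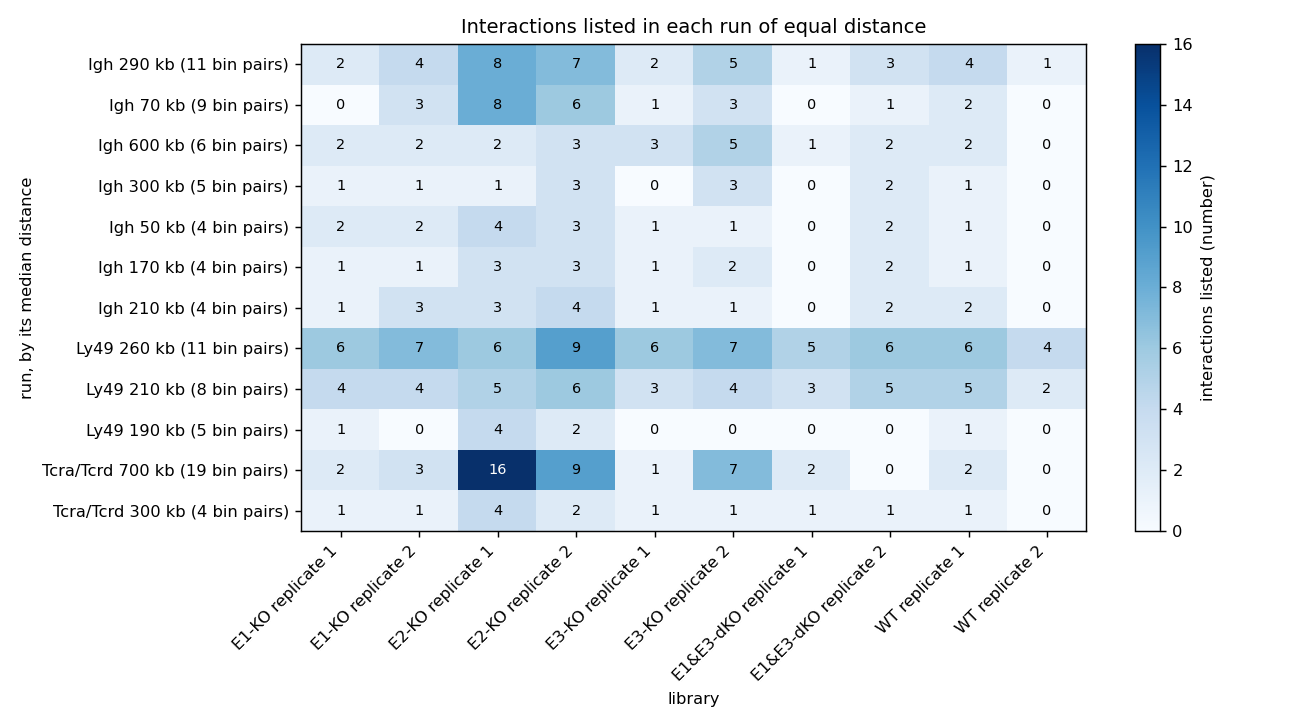
Number of interactions listed per library (columns, knockouts left of WT) in each run found in at least 4 libraries (rows, named by locus, median distance and number of bin pairs). The Ly49 runs at 260 and 210 kb and the Igh run at 290 kb have entries in all 10 columns, and the Tcra/Tcrd run at 700 kb peaks at 16 in E2-KO replicate 1.

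The bias factor, a ratio to an average bin, is known here only for bins of listed interactions. It therefore cannot show how visible the other bins of the arrays were. Its median over the ends inside the window was 0.926 at Igh, 0.793 at Tcra/Tcrd and 1.04 at Ly49, against 1.05 over all interactions under 2 Mb. Over all 34058 listed ends the factors lay between 0.5 and 2.00, so no bin outside that range was listed. The interactions inside the windows rested on a median of 12 reads at Igh, 9 at Tcra/Tcrd and 15 at Ly49, against 12 for all under 2 Mb.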

How the data were processed

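The submitters' processing notes name HiC-Pro 2.10.0, HOMER and the build mm9; the tool behind each list is not given in the sources used here. Each library has a deposited interaction list and a deposited TAD list, and replicates were not pooled. In the interaction list the authors give an unscaled count of reads per pair of 10 kb bins, a p-value, an adjusted p-value (0.01 or less in every list) and a bias factor per bin, a ratio to an average bin. In the TAD list the authors give a score of at least 1.5. The deposited list of WT replicate 2 holds each pair in both orientations (932 lines, 466 pairs), and each was used once. No column belonged to other samples.

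The windows, members and tests were chosen with earlier results of these data known. Libraries shared an interaction if each end was at most 1 bin apart, a boundary if within 25 kb (20 kb in whole bins) and a TAD at 80% reciprocal overlap. Lost means in both WT libraries and in neither of a knockout, and gained means in both of a knockout and in neither of WT. Interaction ends are given by the middle of their bin. Densities were set against the rest of the same list by exact sign-flip permutation, and genotypes were compared by exact permutation over choices or pairings of libraries, with Benjamini-Hochberg adjustment and a threshold of 0.05 (Python 3.11.15, numpy 2.4.6, pandas 2.3.3, matplotlib 3.10.9). The functions were tested on simulated data. Named regions are, per locus, at most 8 interactions and 6 TADs held by most libraries, at most 3 lost and 3 gained boundaries per knockout, the smallest p and the highest score; the runs, the stretch without TADs, the contacts between loci and TADs standing in place of a named one were chosen after their values were seen, and Klra4, Klra8, Klrc3 and Klrc2 as the most alike promoters. Promoters were aligned globally with Biopython 1.88. No library pair shared more than 0.121% of TADs or 5.71% of interactions as identical entries. Alternatives were stricter lists, other tolerances, raw numbers, other denominators, title classes or replicate numbers as a block, and leaving out each library.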

Additional observations from a re-analysis of the deposited data

How the results depend on the processing

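Knockouts and WT did not differ past the threshold under any alternative tried (smallest adjusted p 0.139) by the exact permutation tests, and the direction of several of these differences turned. A single locus could not pass the adjusted threshold under these alternatives either. Without 1 WT library the test has 9 patterns, so no result could pass. With TADs scoring at least 2, the knockout minus WT difference in TADs per 1000 was 0.0833 at Igk and -0.549 at Tcra/Tcrd, each reversed, and with raw numbers it was 1 TAD at Igh, 0.75 at Igk and 0.375 at Ly49, reversed. With the title class as a block it was -0.00422 at Tcrb, reversed. At Ly49 the difference in interactions per 1000 reversed to -4.54 with an adjusted p of at most 0.001 and to -39.5 with interactions under 2 Mb, an alternative chosen after seeing the data. In that last setting WT replicate 2, with 43 interactions under 2 Mb in its list, had 139.5 per 1000. WT replicate 1 had 33.6, so the knockout mean of 47.1 lay between the WT values. Leaving out 1 library moved the TAD difference between -0.671 and 0.136 at Igh and between -0.221 and 0.277 at Tcrb, and the interaction difference at Tcrb between -0.160 and 0.626. The interaction difference at Igh (7.83) was 4.87 without WT replicate 2, 5.22 without E2-KO replicate 2 and 5.29 without E1-KO replicate 2 (highest 10.8), smaller than over all libraries but positive. At Tcra/Tcrd (2.89) it was 1.66 without E2-KO replicate 2 (highest 3.50), and at Ly49 (3.17) it was 1.40 without E2-KO replicate 2, 1.44 without WT replicate 1, 1.63 without E1-KO replicate 2 and 4.89 without WT replicate 2.

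Against the rest of chromosome 6, the density at Igk was 0.05001 TADs per Mb above and -0.00958 interaction ends per Mb, both reversed, and that of TADs at Tcra/Tcrd against chromosome 14 was -0.323 (exact permutation, adjusted p = 0.0893). With stricter lists, TADs per Mb differed from the rest by -0.231 at Igk (now past the threshold), 0.289 at Tcra/Tcrd and -0.228 at Tcrb (both reversed). By TAD midpoint the Tcrb difference was 0.0701. With interactions under 2 Mb, Igk and Tcrb had no end in any library, so the difference (-0.290 each) could only be negative and its test says nothing. Leaving out 1 library moved the TAD density difference at Igk between -0.229 and 0.000625, and that of interaction ends between -0.176 and 0.341 at Igk and between -0.423 and 0.00290 at Tcrb. The calls at Igh, Tcra/Tcrd, Ly49 and, for TADs, Tcrb held without each library.

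With the replicate number as a block, the sign-flip test has 32 patterns and cannot give a p under 0.0625, so no density call could pass. The differences in TADs per Mb stayed at 1.20 for Igh, -0.495 for Tcra/Tcrd, 0.707 for Tcrb and 0.953 for Ly49, and those in interaction ends at 10.3, 4.21 and 10.6 for Igh, Tcra/Tcrd and Ly49 (exact permutation, adjusted p = 0.125 or 0.179). In the block, the spread within genotypes at Igk (0.159) had an adjusted p of 0.167 and was not past the threshold; with raw numbers it was 2.2 TADs, also not past it, and it ranged between 0.101 and 0.193 without each genotype. The block changed no other call. Deviations of same-numbered libraries from their genotype means correlated between -0.284 and 0.348 over the 10 pairs of genotypes, over 0.1 in 5. Every pair with E2-KO was negative (-0.284 to -0.0264) and every other pair was positive (0.0834 to 0.348). Whether the replicate numbers pair the libraries was not tested further.

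Counts of lost and gained boundaries depended on tolerance and on single libraries. Within 10 kb, Igh gained 2 and Ly49 lost 5 and gained 3, summed over the 4 knockouts, and within 50 kb Igh lost 0, Igk gained 6 and Tcrb gained 1. With 1 library of a genotype left out the rule needs only the other, so more boundaries can meet it: the sums lost ranged between 1 and 5 at Igh, 7 and 18 at Igk, 1 and 4 at Tcra/Tcrd, 0 and 13 at Tcrb and 2 and 11 at Ly49, and the sums gained between 0 and 8, 2 and 23, 6 and 11, 5 and 9, and 1 and 10 at the same loci. Interactions in at least 5 libraries ranged between 9 and 14 at Igh and 6 and 8 at Ly49. Other causes were not tested. Total depth is unknown, so a contact missing from a short list may have been below what that library could show.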
